A study of Mus musculus with 2 samples.

Results

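The 841 cells described here were the retinoic acid-treated leukemic cells with the largest share of mitotic transcripts, and they are called mitotic-high cells below. They were chosen by a rule applied to the retinoic acid library alone. Barcodes were kept with at least 5000 UMIs (unique molecular identifiers, each marking 1 captured RNA molecule), at least 500 detected genes and 0.1% to 10% mitochondrial UMIs. A kept cell also had a granule share from 0.5% to below 10%, where the granule share is the percent of its UMIs in Camp, Ngp, Ltf, Lcn2, S100a8 and S100a9, genes that maturing neutrophils express strongly. These limits kept 4206 of the 7416 barcodes. The mitotic-high cells were the 20% of kept cells with the highest summed share of Cdc20, Ccnb1, Ccnb2, Plk1, Cenpf, Hmmr, Aurka and Ube2c, the 8 rule genes. They make up 841 of the 13202 barcodes in the series, and the other 3365 kept cells are called remaining cells.

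Both libraries came from leukemic bone marrow of mice bearing progenitor cells transformed by PLZF/RARA, the fusion of the zinc finger protein PLZF with retinoic acid receptor alpha, which marks an acute promyelocytic leukemia that responds poorly to retinoic acid. The treated library came from mice given 0.8 to 1 mg retinoic acid intraperitoneally and the other from mice given the vehicle, corn oil with 10% DMSO, each for 7 days. Late promyelocytes, sorted as Cd45.2+, c-Kit+, Gr1+, Cd34- and FcγR+, were loaded for 3′ single-cell RNA sequencing at a target of 6000 cells per library. A cohort held 3 to 5 mice, and neither their ages nor the number that gave cells to each library is given in the labels. With 1 library per group, no difference below was tested, and each interval is an exact 95% interval for counting error only.

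Entry into mitosis is driven by CDK1 bound to B-type cyclins and is reinforced by the Polo-like and Aurora kinases. The anaphase-promoting complex, a ubiquitin ligase that works with CDC20 and the enzyme UBE2C, then marks cyclin B and securin for destruction, which lets sister chromatids part and the cell leave mitosis. In the granulocyte lineage promyelocytes still divide, while the later band and segmented neutrophils do not. Transcripts of these genes accumulate from G2 onwards, so their share marks cells in G2 or mitosis and does not separate those phases.

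The labelled cell type was checked first against promyelocyte markers. The serine protease genes of primary granules and Ms4a3, a membrane protein gene of the same stage, were abundant in the mitotic-high cells, where Elane was at 8522 CPM (UMIs of a gene per 1000000 UMIs summed over a group of cells, 3′ counts that are not divided by gene length), Ctsg at 7746, Prtn3 at 3060, Ms4a3 at 2612 and Prss57 at 356. Mpo, the myeloperoxidase gene and the defining promyelocyte marker, went against the label: it had 0 UMIs of 19346564, which allows up to 0.155 CPM. The remaining cells held 1 Mpo UMI at 0.0178 CPM, and vehicle cells chosen by the same mitotic share had 512 CPM, at least 3300-fold more than the mitotic-high cells allow. The granule limits of the rule also admit cells with high Camp (9116 CPM) and S100a8 (6745 CPM), so the name promyelocyte is kept here only as the sort label. Cd34, against which the cells were sorted, was at 0.103 CPM and Kit, for which they were sorted, at 14.4 CPM.

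Markers of other blood cells were scarce in the mitotic-high cells. Summed over the list, 9 monocyte and dendritic markers reached 4.70 CPM, 7 eosinophil markers 1.65 CPM, 9 erythroid markers 0.879 CPM, 5 megakaryocyte markers 0.775 CPM, 7 stem cell markers 1.65 CPM and 8 T and NK markers 0.0517 CPM. The 8 mast and basophil markers summed to 98.4 CPM, of which Mcpt8 made up 94.2 CPM, while Cpa3 stood at 0.0517 CPM. Ighm made up 43.1 of the 48.9 CPM of the B cell list, in which 3 of 8 genes, Pax5 among them, were at 0. All of these sums lay below 100 CPM in the remaining cells too.

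A mitotic-high cell had a median of 22416 UMIs and 4501 detected genes, and a remaining cell 15807 UMIs and 3669 genes. The ratio of the median depths was 1.42, so the shares of the mitotic-high cells rest on more counts. The mitochondrial share was 1.34% in both and the granule share 2.34% and 2.47%. The doublet caller Scrublet marked 4 of 6248 cells (0.0640%), which was taken to mean that it had not worked, and no doublets were removed. Removing the 5% of cells with the highest scores took 5.47% of the mitotic-high and 6.09% of the remaining cells. Of 11 barcodes found in both libraries, 1 was a mitotic-high cell.

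The share that defined the cells formed a continuous range with no gap at the cut. The rule genes took a median of 0.289% of the UMIs of a mitotic-high cell, with a range of 0.185% to 0.584%, against a median of 0.0227% in the remaining cells. The last cell inside had 36 rule gene UMIs of 19458 (0.185014%) and the first outside 42 of 22750 (0.184615%). Within 10% of the cut lay 170 cells, 77 of them inside. Mitotic-high cells had 12 to 203 rule gene UMIs with a median of 65, and 773 remaining cells (23.0%) had none. The set is therefore a range of cells and not a cell type with its own boundary.

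**Figure D1:**
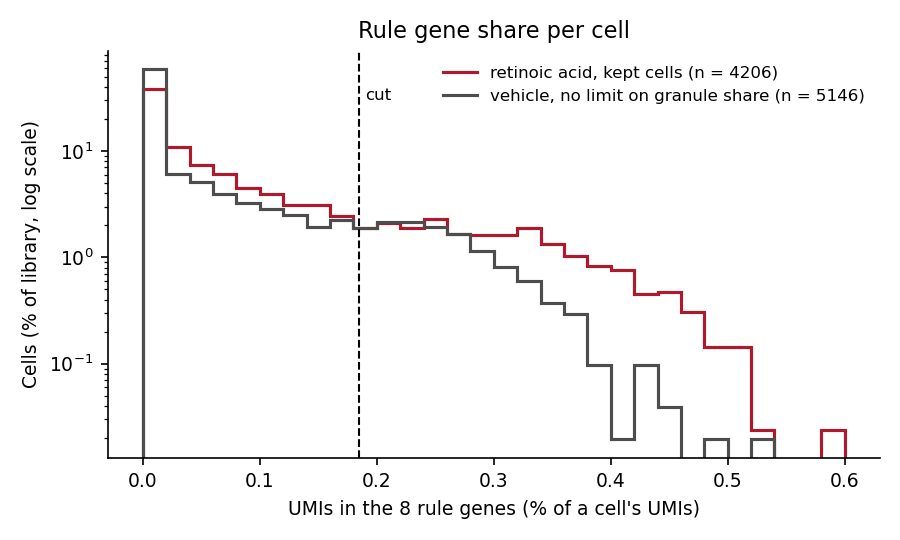
Share of a cell's UMIs in the 8 rule genes (x axis, percent) against the percent of a library's cells in each bin (y axis, log scale), for the 4206 kept retinoic acid cells (red) and 5146 vehicle cells kept without granule limits (grey). The dashed line is the cut at 0.185%, and neither curve has a gap there.

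The 8 rule genes chose the cells, so their levels are given as a description. They encode the machinery of mitotic entry and exit, listed here with GRCm38 positions. Ube2c (chr2:164769898-164778822, plus strand), the ubiquitin-conjugating enzyme of the anaphase-promoting complex, was at 1248 CPM in the mitotic-high and 161 CPM in the remaining cells, a log2 ratio of 2.96. Cdc20 (chr4:118432901-118437352, minus strand), the activator of that complex, was at 276 and 50.6 CPM, a log2 ratio of 2.45. These proteins act together at the exit from metaphase.

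Ccnb1 (chr13:100778650-100786570, minus strand), the main cyclin partner of CDK1, was at 299 and 57.2 CPM, a log2 ratio of 2.39. Ccnb2 (chr9:70407692-70421547, minus strand), its relative at the Golgi, was at 264 and 76.9 CPM, the smallest log2 ratio of the 8 at 1.78. The kinase genes Plk1 (chr7:122159439-122169873, plus strand) and Aurka (chr2:172356190-172370535, minus strand) serve centrosome maturation and spindle assembly. Plk1 was at 167 and 38.8 CPM (2.11) and Aurka at 106 and 27.5 CPM (1.95). Cenpf (chr1:189640606-189688086, minus strand), a large kinetochore protein of late G2 and mitosis, was at 412 and 59.2 CPM, a log2 ratio of 2.80. Hmmr (chr11:40701395-40733422, minus strand), a microtubule-binding spindle protein, was at 158 and 40.2 CPM, a log2 ratio of 1.97. Cdc20, Plk1, Cenpf and Ube2c each overlap 1 annotated gene on the other strand, and whether counting used the strand is not given in the sources used here.

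Each rule gene was also measured in cells chosen by the other 7, so that it did not choose its own cells. The log2 ratio then ran from 1.70 for Ccnb2 to 2.70 for Ube2c. Those choices kept between 91.3% (Ube2c left out) and 98.9% (Aurka left out) of the 841 cells. Ube2c thus moved the membership most, and every rule gene stayed at least 3-fold higher in cells picked without it.

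Detection of the rule genes in single cells is given as a description, since their summed share chose the mitotic-high cells. With every cell thinned to 5000 UMIs, Ube2c had a UMI in 99.0% of mitotic-high cells (98.1% to 99.6%), and 100% unthinned. Aurka, the least often detected, had one in 44.0% (40.6% to 47.4%), and 86.2% unthinned. A mitotic-high cell had a median of 6 of the 8 genes and a remaining cell 1, and unthinned all 8 were present in 74.8% of the former. In the 842 kept cells with the lowest rule gene share, at a median depth of 12708.5 UMIs against 22416, the thinned shares were 0.119% to 0.594%. Those cells were picked as low in the same genes. No cell type that must lack mitotic RNA was available as a background, and cells with a granule share of at least 10% had 9.47% (Aurka) to 27.6% (Ube2c) at a median depth of 10880.5 UMIs.

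Genes of this kind often carry a CHR (cell cycle genes homology region), bound by the DREAM and MuvB complexes, and CCAAT boxes, bound by NF-Y, close to the start of transcription. Promoters are shown as a description of both motifs and their spacing. That the rule genes were higher together was set by the choice of cells. Windows of 250 bases before to 50 after each RefSeq start (GRCm38.p6) were searched on both strands for the letters of a CHR, which are TTTGAA in most genes and TTCGAA as a variant, and for the letters CCAAT. The last 120 bases before the start are printed 5′ to 3′ on the gene's strand, with a CHR (on the other strand it reads TTCAAA) and a CCAAT box (on the other strand it reads ATTGG) in capitals. Cdc20, Ube2c and Prc1 show a CHR in this stretch, Ccnb1 and Ccnb2 show CCAAT boxes alone, Cdc25b has the gene with the highest ratio outside the rule, and Nusap1 has neither motif. 
Cdc20, chr4:118437344-118437463, minus strand: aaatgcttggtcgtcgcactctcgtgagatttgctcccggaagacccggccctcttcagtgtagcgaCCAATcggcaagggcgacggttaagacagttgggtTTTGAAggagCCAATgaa
Ube2c, chr2:164769809-164769928, plus strand: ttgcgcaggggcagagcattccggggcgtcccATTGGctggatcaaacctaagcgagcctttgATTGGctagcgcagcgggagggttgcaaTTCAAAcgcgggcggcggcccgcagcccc
Ccnb1, chr13:100786487-100786606, minus strand: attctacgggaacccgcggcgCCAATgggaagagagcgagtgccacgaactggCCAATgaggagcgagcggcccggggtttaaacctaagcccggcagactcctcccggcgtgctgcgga
Ccnb2, chr9:70421555-70421674, minus strand: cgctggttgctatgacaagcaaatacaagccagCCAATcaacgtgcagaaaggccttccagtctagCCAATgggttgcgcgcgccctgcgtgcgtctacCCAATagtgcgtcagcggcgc
Prc1, chr7:80294356-80294475, plus strand: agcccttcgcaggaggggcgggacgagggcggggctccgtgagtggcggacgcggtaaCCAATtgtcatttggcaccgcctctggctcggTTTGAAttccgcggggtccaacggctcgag
Cdc25b, chr2:131186828-131186947, plus strand: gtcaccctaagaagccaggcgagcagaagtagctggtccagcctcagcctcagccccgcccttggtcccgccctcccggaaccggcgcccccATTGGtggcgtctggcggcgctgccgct
Nusap1, chr2:119618178-119618297, plus strand: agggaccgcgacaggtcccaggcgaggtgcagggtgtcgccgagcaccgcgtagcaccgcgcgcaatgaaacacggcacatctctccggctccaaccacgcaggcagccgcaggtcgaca

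In the whole windows, 7 of the 8 rule genes held CHR letters, all 7 within 50 bases of the start, and Ccnb1 held none. Over all 32851 promoter windows 19.2% held them, and 5.31% within 50 bases. CCAAT letters were in the windows of all 8 rule genes, 7 of which had at least 2 copies, against 37.4% and 11.7% of all windows. Both motifs together were in 7 of 8 rule gene windows and in 7.52% of all windows. These are matches of letters, and no binding was measured.

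Expression over all genes was then compared between mitotic-high and remaining cells, as a description, since the rule used this contrast. A level of 20 CPM in at least 1 group was required, which 5488 genes reached, and 90 of them (1.64%) were at least 2-fold higher in the mitotic-high cells and 41 (0.747%) at least 2-fold lower. The median log2 ratio of all 5488 was 0.06. The 90 included the 8 rule genes, and 56 others were in lists of mitotic, tubulin or chromatin genes. Of the 41 lower genes, 30 were in the lists of replication or cluster histone genes. The promoters of the genes outside the rule differed in the same letters. CHR letters were in 50 of 80 windows (62.5%) of the higher genes and in 4 of 39 (10.3%) of the lower genes, beside 14.8% of the windows of all genes compared. CCAAT letters were in 64 of 80 windows of the higher genes and in 22 of 39 (56.4%) of the lower genes, beside 38.1%.

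Mitotic entry genes differed widely among themselves. Of 13 measured, 6 were at least 2-fold higher and the median log2 ratio was 0.95. Cdc25b, the phosphatase that starts CDK1 activation at the centrosome, had the largest ratio outside the rule, at 53.5 and 5.79 CPM (log2 3.21, 3.03 to 3.39). Its relative Cdc25c was at 29.8 and 9.48 CPM (1.65), whereas Cdc25a, which also serves the start of S phase, was at 38.4 and 48.5 CPM (-0.34). Cdk1 itself was at 372 and 153 CPM (1.28) and the cyclin gene Ccna2 at 156 and 56.3 CPM (1.47). Nek2, a centrosome kinase, was at 25.9 and 6.82 CPM (1.93). Wee1, the kinase that restrains CDK1, was at 44.3 and 37.2 CPM, a log2 ratio of 0.25. The Cdc25 phosphatase genes therefore lay on both sides of 0.

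The chromosomal passenger complex corrects faulty attachments of chromosomes to the spindle, and the shugoshins protect centromeric cohesion. Of these 6 genes, 4 were at least 2-fold higher, with a median log2 ratio of 1.14. Sgo2a (1.29), Birc5 (1.19), Sgo1 (1.17) and Cdca8 (1.11) passed 2-fold. Aurkb, the kinase of the complex, was at 163 and 87.4 CPM (0.90), and Incenp, its scaffold, at 191 and 108 CPM (0.82).

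Kinetochore and checkpoint genes were mostly higher, with 25 of 27 above 0, 10 at least 2-fold higher and a median log2 ratio of 0.77. Cenpa, the histone H3 variant of centromeres, was at 452 and 94.9 CPM (2.25, 2.20 to 2.30). Cenpe, a kinesin that moves chromosomes to the spindle equator, was at 158 and 45.4 CPM (1.80). The checkpoint genes Bub3 and Bub1b had log2 ratios of 1.17 and 1.07. Cenph and Cenpk, of the network that sits on centromeres through the whole cycle, were the 2 below 0, at -0.57 and -0.32.

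Spindle motors and cytokinesis genes were the lists with the largest medians. Of 11 measured kinesins 9 were at least 2-fold higher, with a median log2 ratio of 1.42. Kif20a, which brings the passenger complex to the central spindle, was at 71.8 and 20.7 CPM (1.80), and Kif2c, a microtubule depolymerase, at 57.8 and 18.8 CPM (1.62). Kif2a (0.05) and Kif15 (0.33) were the members under 2-fold. Of 22 spindle and cytokinesis genes 18 were at least 2-fold higher, with a median of 1.35. Aspm, a spindle pole protein, was at 70.8 and 12.9 CPM (2.45), Nusap1, which bundles spindle microtubules, at 161 and 43.0 CPM (1.90), and Prc1, which crosslinks the central spindle, at 211 and 67.1 CPM (1.65). Arl6ip1, an endoplasmic reticulum membrane protein, was the most abundant of them at 851 and 264 CPM (1.69). Stmn1, which destabilises microtubules, was the exception at 405 and 554 CPM (-0.45).

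Among genes of the anaphase-promoting complex and its substrates, 3 of 19 were at least 2-fold higher, and the median log2 ratio was 0.21. The 3 were Pttg1, which encodes securin, at 159 and 51.1 CPM (1.64), Fzr1, the activator of late mitosis and G1, at 78.5 and 28.3 CPM (1.47), and Espl1, which encodes separase, at 25.2 and 11.9 CPM (1.08). Ube2s, which extends the ubiquitin chains, was just under the limit at 489 and 247 CPM (0.99). Core subunits of the ligase lay between -0.07 (Anapc13) and 0.55 (Cdc27). The activators and substrates therefore differed more than the ligase itself.

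Genes of the chromosome condensation list differed less, with 2 of 12 at least 2-fold higher and a median log2 ratio of 0.68. The 2 were Cdca3 (1.07) and Cdca2 (1.01), which are not condensin subunits. The condensin I subunits Ncaph, Ncapg and Ncapd2 had 0.84, 0.74 and 0.55, while the condensin II subunits Ncaph2, Ncapd3 and Ncapg2 had 0.10, -0.23 and -0.70. Top2a, the topoisomerase that untangles sister chromatids, was at 302 and 183 CPM (0.73), and Mki67, which coats mitotic chromosomes, at 338 and 182 CPM (0.90). Of 8 tubulin genes, Tuba1c (1.65), Tubb4b (1.39) and Tuba1a (1.06) passed 2-fold. Tubulin genes have near-identical copies among which reads could have been split, so their values are uncertain, as are those of H2afx and other histone genes. Tubb4b alone reached 1611 CPM against 614.

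Other nuclear groups moved little. None of 8 nuclear lamina genes, 9 genes of the DREAM, MYBL2 and NF-Y regulators or 8 G1 regulators reached 2-fold, and their medians were 0.18, -0.04 and 0.12. Mybl2, a transcription factor of the mitotic program, was at 36.9 and 39.5 CPM (-0.10), and Foxm1, at 16.9 CPM, lay under the limit for comparison. H2afx, the histone variant phosphorylated at DNA breaks, was at 458 and 149 CPM (1.62) and was the only 1 of 11 histone variant and HMG genes past 2-fold. Outside every list, Cdkn3, a phosphatase acting on CDK1 and CDK2, was at 140 and 34.6 CPM (2.02), Trim59 at 53.4 and 15.9 CPM (1.74) and Tnfaip8l1 at 50.9 and 16.5 CPM (1.62).

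**Figure D2:**
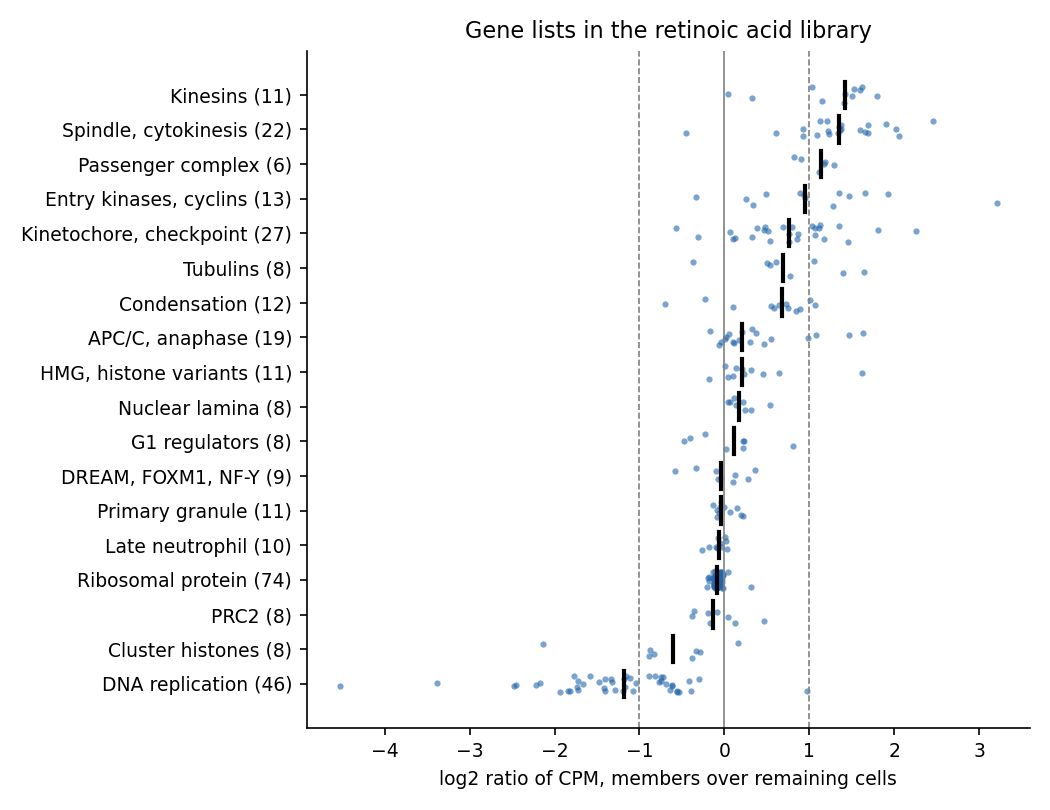
Log2 ratio of CPM, mitotic-high over remaining cells of the retinoic acid library (x axis), for each gene (point) of each list (rows, number of genes measured in parentheses). Black bars are list medians, from 1.42 for kinesins to -1.19 for DNA replication, and dashed lines mark 2-fold.

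DNA replication genes were the main lower group. Of 46 measured, 29 were at least 2-fold lower and none higher, with a median log2 ratio of -1.19. Lig1, which joins Okazaki fragments, was at 19.5 and 90.6 CPM (-2.22, -2.37 to -2.07). The helicase genes Mcm2 to Mcm7 lay between -1.84 (Mcm2) and -1.29 (Mcm7), among them Mcm6 at 61.6 and 205 CPM (-1.74). Pcna, the sliding clamp, was at 70.9 and 225 CPM (-1.67), and Rrm2, of ribonucleotide reductase, at 63.6 and 168 CPM (-1.40). The largest differences were those of G1/S genes, with Ung, a uracil-DNA glycosylase, at 1.14 and 26.9 CPM (-4.53) and Ccne1, cyclin E1, at 2.02 and 21.3 CPM (-3.38). Dbf4, the regulatory subunit of the kinase that fires origins, was the only 1 of the 46 above 0, at 97.6 and 49.8 CPM (0.97).

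Replication genes did not simply mirror the mitotic ones along the range. When the kept cells were ordered by rule gene share and cut into 5 groups, the highest being the mitotic-high cells, the median replication share per cell was 0.346%, 0.498%, 0.474%, 0.266% and 0.176%. Pcna was at 202, 270, 292, 146 and 70.9 CPM over the same groups, highest in the middle. Hist1h1b, a linker histone of S phase, peaked there too, at 18.1, 87.6, 285, 225 and 89.8 CPM. Ung differed, being highest in the lower groups at 48.5 and 52.6 CPM and then at 14.6, 2.70 and 1.14 CPM. Median depth also differed between the groups, from 12708.5 UMIs in the lowest to 22416 in the highest, and its part in these levels was not tested.

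Mitotic genes outside the rule followed the 5 groups to different degrees. Cenpa was at 6.13, 17.3, 81.5, 229 and 452 CPM. Cdc25b stayed at 2.58 to 10.8 CPM in the lower 4 groups and was at 53.5 CPM in the mitotic-high cells. Top2a, by contrast, was at 55.6, 98.5, 228, 295 and 302 CPM and Tubb5 at 272, 382, 778, 1069 and 1024 CPM, levels already reached in the group below the cut. Arl6ip1 was at 187, 180, 231, 412 and 851 CPM, with a high level in cells with almost no rule gene UMIs.

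**Figure D3:**
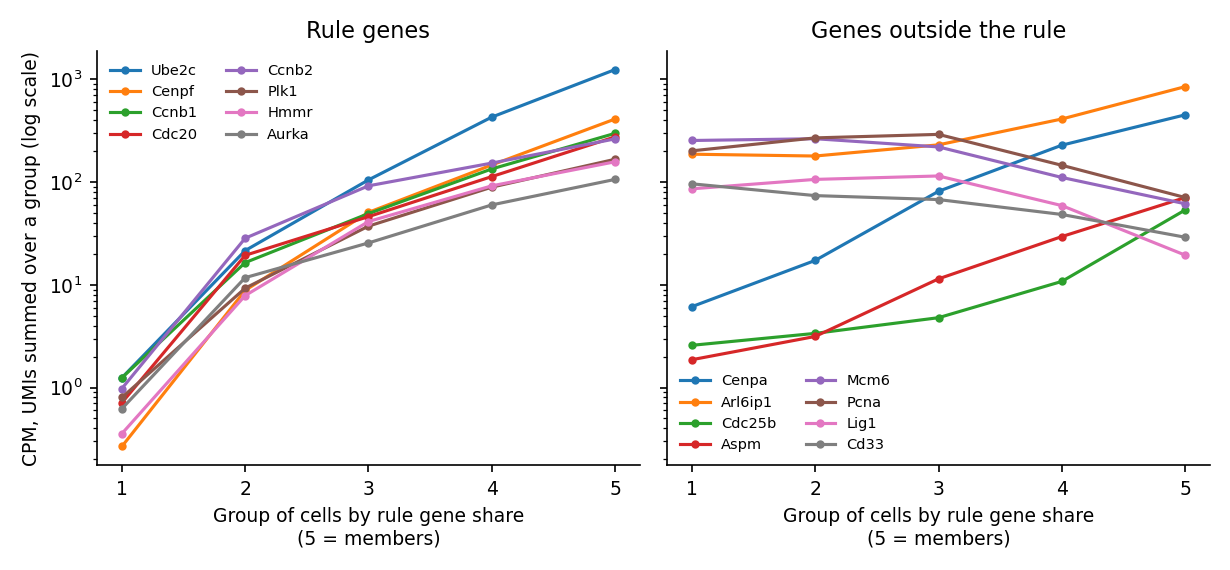
CPM (y axis, log scale) in 5 groups of 841 or 842 kept retinoic acid cells ordered by rule gene share (x axis, group 5 the mitotic-high cells), for the rule genes (left) and genes outside the rule (right). Cenpa climbs from 6.13 to 452 CPM, Cdc25b changes mostly at the last step, and Pcna is highest in group 3 and lowest in group 5.

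A separate group was formed from the 20% of kept cells with the highest share of replication list genes. It also held 841 cells, and 0 were mitotic-high, which is 0% of either group, beside 20% of all kept cells. Mitotic-high cells had a median replication share of 0.176%, the replication-high cells 0.653% and the 2524 cells in neither group 0.281%. Pcna was at 70.9, 415 and 161 CPM in these 3 groups, and Cenpa at 452, 20.2 and 120 CPM. The replication-high cells lay between 0 and the cut in rule gene share, with a median of 0.0161%.

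Granule and maturation genes were nearly level. None of 11 measured genes of the primary granule list or 10 late neutrophil genes reached 2-fold, and the medians were -0.04 and -0.06. Elane was at 8522 and 9033 CPM (-0.08) and Ctsg, cathepsin G, at 7746 and 6654 CPM (0.22). Among late genes, Cd177, a neutrophil surface protein, was at 227 and 224 CPM (0.02) and Ly6g, part of the sorted Gr1 antigen, at 57.0 and 56.6 CPM (0.01). The rule bounded the granule share on both sides, which limits how far these genes could differ. With no limit on granule share the medians were 0.066 and -0.46. Ribosomal protein genes took 23.2% of the summed UMIs against 24.6%, with a median of -0.08 over 74 genes.

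Cd33, a sialic acid-binding receptor of myeloid cells, was the only 1 that encodes a surface protein among the 15 lowest ratios once genes under 50 CPM in both groups were set aside. It was at 29.1 and 69.2 CPM (-1.25, -1.38 to -1.12). Over the 5 groups it was at 96.4, 74.0, 67.7, 48.5 and 29.1 CPM, lower at every step, unlike Pcna. The others serve DNA replication, nucleotide supply or histone acetylation.

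The series asked about EZH2, the methyltransferase of Polycomb repressive complex 2. Ezh2 was at 94.95 and 101 CPM (-0.09, -0.17 to -0.02), and the median of 8 measured genes of that complex was -0.13 with none at 2-fold. Ezh2 was highest in the middle group, at 78.2, 98.6, 119, 103 and 94.95 CPM. Rbbp4 and Rbbp7, histone-binding subunits shared with other complexes, had -0.39 and -0.36. Of the cell cycle inhibitors, Cdkn2d was at 39.1 and 22.4 CPM (0.81) and Cdkn1a at 114 and 112 CPM (0.02).

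The mitotic-high cells also varied among themselves. Cut into 4 groups of 210 or 211 by rule gene share, they had median replication shares of 0.198%, 0.184%, 0.170% and 0.156% from the lowest to the highest. The median share of cluster histone genes was 0.0484%, 0.0347%, 0.0207% and 0.0167%. Hist1h1b was at 155, 99.7, 60.2 and 37.1 CPM, and Lig1 at 29.2, 21.3, 14.8 and 11.5 CPM. Within the mitotic-high cells, histone and replication transcripts were thus lowest where rule gene share was highest. Over the 5 groups of all kept cells, the median cluster histone share was 0.00578%, 0.00945%, 0.0699%, 0.0659% and 0.0258%, the last being the mitotic-high cells. Summed over cells, cluster histone genes were at 394 CPM in the mitotic-high and 554 CPM in the remaining cells. The median log2 ratio of the 8 measured was -0.61, with 7 below 0. The median shares per cell went the other way, at 0.0258% and 0.0188%.

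Genes outside the rule differed in how far they followed it within the set. Cdc25b was at 35.9, 44.2, 65.5 and 71.2 CPM and Aspm at 48.6, 61.2, 79.7 and 97.2 CPM. Aurkb was nearly level at 153, 152, 173 and 177 CPM and Top2a at 285, 293, 307 and 327 CPM. Median UMIs of these groups were 22443, 23670.5, 23131 and 20742.5, lowest in the group with the highest rule gene share, and the part of depth was not tested. Correlations between single rule genes across the 841 cells were weak, the closest being Ube2c with Ccnb1 at a Spearman rho of 0.32. These genes share each cell's total and their sum chose the cells, and the part of both in these values was not tested.

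The same cut was applied to the vehicle library, without granule limits because only 185 vehicle cells passed them. Of 5146 vehicle cells 655 (12.7%, 11.8% to 13.7%) reached it, against 1084 of 6248 retinoic acid cells (17.3%, 16.4% to 18.3%) without granule limits. With granule limits 22 of 185 vehicle cells (11.9%, 7.60% to 17.4%) did. Thinned to 5000 UMIs per cell the shares were 11.8% and 16.6%. These shares describe 1 library each, and the sort, the mice and the preparation cannot be told apart from the treatment.

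Within the vehicle library the contrast looked much alike on the mitotic side. Of 5503 genes compared, 125 (2.27%) were at least 2-fold higher in cells at or above the cut than below it and 27 (0.491%) lower. Of the higher genes 79 were the same as in the retinoic acid library, 87.8% of the retinoic acid set and 63.2% of the vehicle set. The 79 include the 8 rule genes, which chose the cells in both libraries and so had to be shared. No gene was past 2-fold in opposite directions. Cdc25b was at 47.3 and 5.59 CPM (3.08) and Aspm at 48.2 and 8.85 CPM (2.44). The median was 1.69 for kinesins, 1.71 for spindle and cytokinesis genes and 1.28 for the condensation list.

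On the lower side the libraries shared 1 gene, Chaf1b, a subunit of the histone chaperone CAF-1, which is 2.44% of the retinoic acid set and 3.70% of the vehicle set. Replication genes had a median of -0.31 in vehicle, beside -1.19 in the retinoic acid library. Of 39 measured in vehicle, 1 was at least 2-fold lower and 1, Dbf4, higher, at 85.02 and 32.7 CPM (1.38). Lig1 was at 27.3 and 48.9 CPM in vehicle (-0.84) and Mcm3 at 60.3 and 88.1 CPM (-0.55, against -1.82). In the comparison groups themselves, replication genes had a summed level of 3982 CPM in the remaining cells and 2536 CPM in vehicle cells below the cut, and 1893 and 2042 CPM above it. The mitotic-high ends were therefore closer than the cells they were compared with. Granule share was bounded in the retinoic acid contrast and not in the vehicle contrast. With no limit on it, 56 genes were at least 2-fold lower in the retinoic acid library. The difference between the 2 contrasts, and the part of the granule limits in it, was not tested.

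**Figure D4:**
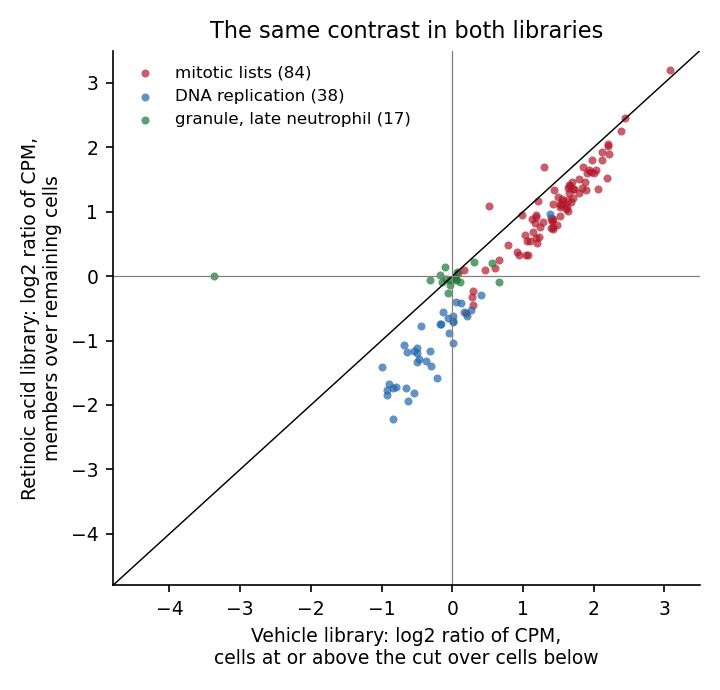
Log2 ratio of CPM in the vehicle library (x axis, cells at or above over cells below the cut) and in the retinoic acid library (y axis, mitotic-high over remaining cells), 1 point per gene of the mitotic (red), replication (blue) and granule or late neutrophil lists (green), with the line of equality. Most mitotic and replication genes lie below the line, and Ly6g is the green point at -3.36 in vehicle and 0.01 in the retinoic acid library. Granule share was bounded in the retinoic acid library alone.

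Mitotic-high cells were last set beside the 655 vehicle cells at or above the cut, side by side and with 1 library each. Of 5740 genes compared, 123 (2.14%) were at least 2-fold higher in the retinoic acid cells and 233 (4.06%) lower. Among remaining cells and vehicle cells below the cut, 154 of 5536 (2.78%) were higher and 280 (5.06%) lower. Mitotic levels were near one another, with a median log2 ratio of 0.23 for the rule genes, which set the groups, 0.22 for kinesins and 0.28 for spindle genes. Ube2c was at 1248 and 1157 CPM and Cenpa at 452 and 445 CPM. Within the mitotic lists the exceptions past 2-fold were few: 1 entry gene, Cdc25a (1.03), was higher, and 1 spindle gene, Pimreg, was lower at 7.24 and 29.3 CPM (-2.01).

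Granule genes differed more between the mitotic-high cells of the libraries, in both directions. Of 12 genes of the primary granule list compared, 3 were at least 2-fold higher with retinoic acid and 3 lower, and the median log2 ratio was -0.02. That list also holds genes that do not encode granule proteins, Ms4a3 and Calr among them, so these counts are not of granule proteins alone. Elane, neutrophil elastase, was at 8522 CPM with retinoic acid and 90.5 CPM in vehicle (6.56), and Prtn3, proteinase 3, at 3060 and 242 CPM (3.66). Ms4a3 was the third higher gene, at 2612 and 1166 CPM (1.16). The lower ones were Mpo, given above, Nkg7 at 580 and 1318 CPM (-1.18) and Calr, the chaperone calreticulin, at 883 and 1820 CPM (-1.04). Ctsg was at 7746 and 7707 CPM (0.01). Of 12 late neutrophil genes compared 8 were higher and 2 lower. The higher ones included Cd177 at 227 and 9.69 CPM (4.55) and Lrg1, a secreted glycoprotein, at 223 and 8.50 CPM (4.71). The rule selected on secondary granule genes in the retinoic acid library alone. Their levels, such as Camp at 9116 and 134 CPM, carry that choice. The median granule share was 2.34% in the mitotic-high cells and 0.0304% in these vehicle cells, which had no granule limits. The part of that choice in the primary granule and late neutrophil differences was not tested. Vehicle cells had Cd34 at 58.8 CPM and Cpa3, mast cell carboxypeptidase, at 327 CPM, where retinoic acid cells had 0.103 and 0.0517 CPM. Mitochondrially encoded genes summed to 14064 CPM with retinoic acid and 20657 CPM in vehicle, and their part in these differences was not tested. Ezh2 was at 94.95 and 76.0 CPM (0.32), beside 101 and 53.3 CPM in the remaining and the lower vehicle cells.

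A few genes outside the cell cycle lists had different ratios in the vehicle library, and these differences were not tested. Ly6g was at 3.47 CPM at or above the cut and 36.0 CPM below it (-3.36), beside 57.0 and 56.6 CPM with retinoic acid. Cdkn1a, the inhibitor p21, was at 79.4 and 151 CPM in vehicle (-0.93) and at 114 and 112 CPM with retinoic acid. Cd33 was at 175 and 255 CPM in vehicle (-0.54). Granule share was bounded in the retinoic acid cells and not in vehicle, and its part in these ratios was not tested. Without those limits the late neutrophil median was -0.46 with retinoic acid, beside -0.24 in vehicle.

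The share of retinoic acid cells reaching the cut was then followed over the granule share, which the rule had bounded between 0.5% and 10%. It was 15.7% of 490 cells below 0.5% (12.6% to 19.2%), 20.2% of 697 cells from 0.5% to 1%, 21.5% of 1051 from 1% to 2%, 19.6% of 1536 from 2% to 5% and 18.8% of 922 from 5% to 10%. Beyond the rule it was 16.5% of 788 cells from 10% to 20% (14.0% to 19.3%) and 4.71% of 764 cells at 20% and above (3.32% to 6.46%). Mitotic-high cells were therefore spread over the whole bounded range at similar shares, and scarce only in the cells with the most granule transcripts.

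Granule transcripts fill part of a cell's total and those cells were shallower, with a median of 9007.5 UMIs at 20% and above. With the 6 granule genes taken out of the total, the shares of the last 2 bins were 19.3% and 5.63%. Thinned to 5000 UMIs per cell they were 15.6% and 3.66%. The low share at 20% and above was present in each of these versions.

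**Figure D5:**
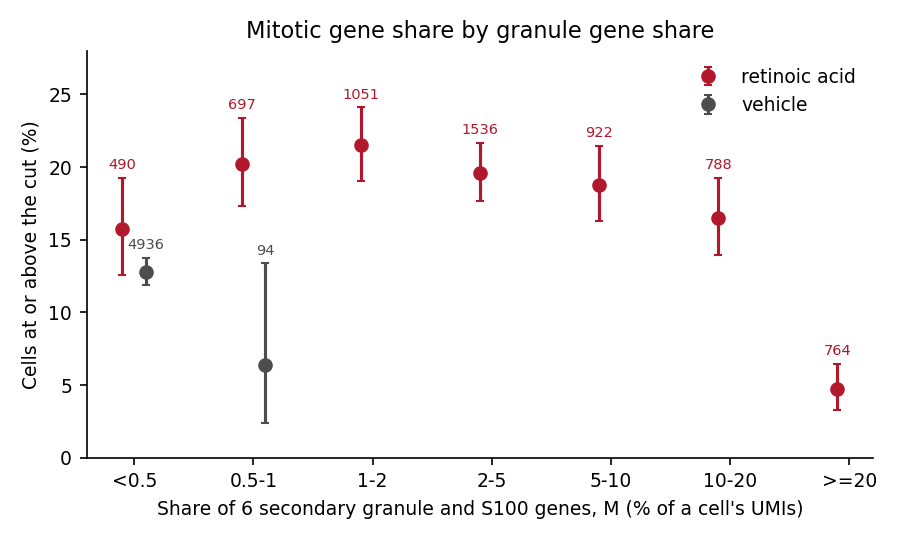
Percent of cells at or above the cut of 0.185% rule gene UMIs (y axis, with exact 95% binomial intervals) by granule share (x axis, percent of a cell's UMIs), with the number of cells above each point, for the retinoic acid library (red) and vehicle bins of at least 50 cells (grey). Retinoic acid cells lie between 15.7% and 21.5% up to a granule share of 20% and at 4.71% above it.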

How the data were processed

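Single-cell RNA was measured in 1 retinoic acid and 1 vehicle library. The authors deposited raw UMI counts per gene and barcode, made with Cell Ranger 4.0.0, as recorded per the file headers, and the builds mm10 and GRCm38.p4 are named in the submitters' processing notes. The rule separating cells from empty droplets and the annotation release are not given in the sources used here. In all, 7416 retinoic acid barcodes carried 110443779 UMIs and 5786 vehicle barcodes carried 99679545. Of 32285 gene identifiers 32158 matched GENCODE M21, and promoters are RefSeq (GRCm38.p6), matched for 69 of the 82 higher genes outside the rule, 34 of the 41 lower genes and all 8 rule genes.

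The cells and gene lists were chosen with earlier results of these data known. The limits on depth, genes and mitochondrial share removed 757, 0 and 411 retinoic acid barcodes in turn, and the lower and upper granule limits 490 and 1552. Counts were summed over each group of cells and given as CPM, and log2 ratios have 0.5 counts added to each sum. Genes with at least 20 CPM in either group were compared, and a ratio of at least 2-fold was called. Each group being 1 library, there was no test. Intervals printed beside a value are exact at 95%, binomial for shares and conditional on the summed counts for ratios. A count of 0 allows 3 counts. Intervals and limits cover counting error only. Named genes were the rule genes, list members with at least 20 CPM in either group, and the 15 highest and 15 lowest ratios among genes with at least 50 CPM. For shares of cells with a UMI, each cell was thinned to 5000 UMIs. The calculation was tested on simulated data. The alternatives were other member shares, depth limits, granule limits, CPM and fold limits, equal weight for every cell, thinning, TMM scaling and removal of likely doublets. Python 3.11.15, numpy 2.4.6, scipy 1.17.1, pandas 2.3.3, scanpy 1.11.5 (Scrublet), and edgeR 4.0.16 in R 4.3.3 for TMM factors alone were used.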

Additional observations from a re-analysis of the deposited data

How the results depend on the processing

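Of 237 values recomputed under the alternatives, 173 stayed within their interval or within 1.5 times the count, 63 moved and 1 reversed. For a list median that interval ran between the medians of its genes' limits, and for the depth ratio it came from medians over cells. A sign change counted as a reversal only where the interval of the reported value left out 0. The reversal was the primary granule median, 0.066 with no limit on granule share, where the late neutrophil median was -0.46. The G1 regulator median, reported as 0.12, counted only as moved. It was -0.23 with 30% of cells, -0.08 with no limit on granule share and -0.10 with members chosen at 5000 UMIs. Other medians near 0 changed sign too. In the order entry genes, passenger complex, kinetochore and kinesins, list medians were 0.90, 1.04, 0.60 and 1.24 with 10% of cells as members, and 1.09, 1.28, 1.04 and 1.55 with 30%, where spindle genes had 1.52. In the same order they were 1.17, 1.30, 0.96 and 1.59 with no limit on granule share (spindle genes 1.53), and 1.07, 1.34, 0.98 and 1.60 with equal weight for every cell (spindle genes 1.53). Entry genes had 0.91 at a depth of at least 10000 UMIs and 0.88 with TMM scaling. The depth ratio was 1.34 with 10% of cells and 1.35 at 10000 UMIs. Higher genes numbered 33 and lower genes 9 at a limit of 100 CPM, lower genes 65 at 5 CPM, and 167 and 102 passed 1.5-fold. Without a CPM limit 1374 and 884 passed 2-fold, many of them with few counts, where the added 0.5 counts weigh on groups of unequal size. Vehicle cells at the cut were 14.4% when the cut was set at 5000 UMIs per cell. Choosing cells by all 8 rule genes on a random part of the UMIs and measuring on the rest gave 2.82 for Ube2c, which had 2.70 in cells chosen by the other 7 genes. That choice kept 786 of the 841 cells (93.5%), and choosing at 5000 UMIs kept 748 (88.9%). Depth limits genes with low counts and the sharpness of the cut. No paired analysis was possible because only 1 library stood for either treatment.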

Other observations

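Of the 90 genes at least 2-fold higher in the mitotic-high cells, 26 were in none of the lists. The genes named in this paragraph were picked after their values were seen. Pif1, a DNA helicase, was at 23.8 CPM and a log2 ratio of 2.18, with 2.32 in the vehicle contrast. Gas2l3, which links actin and microtubules, was at 37.9 CPM (1.91, vehicle 2.05), Gpsm2, an adaptor that orients the spindle, at 36.0 CPM (1.85, vehicle 1.68), and Reep4, an endoplasmic reticulum protein, at 73.7 CPM (1.56, vehicle 1.74). Cep89, a centriole appendage protein, had 2.15 and 1.89.

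Of the 27 genes lower in vehicle cells at or above the cut, 1, Chaf1b, was in the replication list. Picked after their values were seen, the chemokine gene Ccl6 had a log2 ratio of -2.87 in vehicle and -0.45 in the retinoic acid library, Akr1c18 -2.37 and -0.33, the integrin gene Itgb2 -1.31 and -0.33, and Clic3 -1.92 and 0.24. The granule limits were applied to the retinoic acid library only, and their part in these differences was not tested.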
